A study of Homo sapiens with 26 samples.

Results

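The genes described here are 9 lipid droplet genes of the 58735 genes in the table: PLIN2, PLIN3, HILPDA, G0S2, PNPLA2, DGAT1, LPIN1, ACSL3 and ANGPTL4. They were taken by name from the count table. PLIN2 was chosen by its measured glucose response, which was larger in CF than in WT cells, and the other members were selected on their role in droplet turnover with those results known. Fold changes with glucose and line differences at a single glucose level are therefore given for the members as a description, without a test. RNA was sequenced from 16HBE human bronchial epithelial cell lines: 16HBE14o-, which carries WT CFTR, and its gene-edited derivative 16HBEge, which carries DeltaF508 CFTR and is called CF here. Cells were plated on Transwell inserts at 250000 cells per well and kept for 7 days in medium with 5.5 mM (normal) or 17.5 mM (high) glucose, and 2 inserts were pooled per sample. There were 6 WT normal glucose, 5 WT high glucose, 6 CF normal glucose and 6 CF high glucose libraries, and 3 further WT libraries in normal glucose were labelled not polarized, although the culture text shared by all samples describes Transwells for them too. The labels do not say whether libraries came from separate cultures, so p-values measure only the spread between these samples, which may be technical. Each genotype was represented by a single line, so the CFTR genotype cannot be told apart from other differences between the lines.

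A lipid droplet stores triglycerides and sterol esters in a core under a single phospholipid layer coated with perilipins. PLIN2 is the perilipin found on droplets of most cells that are not adipocytes and is degraded when it has no droplet to sit on, whereas PLIN3 moves between the cytosol and the droplet surface. PNPLA2 (ATGL) starts triglyceride breakdown, and HILPDA and G0S2 are small proteins that inhibit it. HILPDA, PLIN2 and ANGPTL4 are known targets of hypoxia-inducible factors (HIF) or of the fatty acid receptors of the PPAR family in many cell types.

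Libraries held 14658319 to 20413839 counts. Levels are given as CPM, the counts scaled to the library total after its adjustment by the TMM normalization factor, not to the raw total. Within the groups of cells on Transwells, libraries numbered 1 to 3 stood apart from those numbered 4 to 6: the first principal component of the deviations from group means held 39.5% of the variance and separated these number sets. Ribosomal protein gene counts made up 3.17% to 4.79% of the libraries numbered 1 to 3 and 2.42% to 3.59% of those numbered 4 to 6. The labels do not say what the numbers stand for, so values within each set are given for PLIN2, HILPDA, G0S2, PNPLA2 and ANGPTL4 with glucose in CF cells and for the line differences that passed. Airway epithelial markers were high in every library (EPCAM 439 to 725 CPM). Of the basal cell markers, KRT5 ranged from 23.5 to 103 CPM, with group means of 70.9 and 80.3 in CF and 39.0 and 43.0 in WT cells on Transwells, and TP63 reached at most 1.06 CPM. Adipocyte markers summed to at most 0.884 CPM, with ADIPOQ at 0 in all 26 libraries, and macrophage and leukocyte markers summed to 1.18 to 2.68 CPM in WT and 2.79 to 6.94 CPM in CF cells on Transwells. Within that list CD163 was at 0 in all 26 libraries, and MARCO (0.707 to 5.85 CPM) and CD14 (0.344 to 1.82 CPM) were at 0 in none. Fibroblast and endothelial markers summed to 26.4 to 43.9 CPM in WT and 14.6 to 29.0 CPM in CF cells on Transwells, and COL1A1 made up most of the sum (12.6 to 43.3 CPM). The part of these markers in the line differences was not tested. Since these are bulk samples, fewer cells of a type and less RNA per cell cannot be told apart.

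The sequences upstream of 3 members are shown because these members had different glucose responses: PLIN2 and ANGPTL4 were lower, and G0S2 was higher, in high glucose. Each is the 250 bases before the RefSeq start site (GRCh38.p14), 5′ to 3′ on the gene's strand, and capitals mark ACGTG, the core of HIF response elements, on either strand.
PLIN2 (chr9:19127493-19127742, minus strand): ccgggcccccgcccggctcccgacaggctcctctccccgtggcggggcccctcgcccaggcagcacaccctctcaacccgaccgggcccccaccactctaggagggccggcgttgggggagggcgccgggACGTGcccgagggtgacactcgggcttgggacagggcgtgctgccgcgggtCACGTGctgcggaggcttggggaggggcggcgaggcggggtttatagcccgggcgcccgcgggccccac
ANGPTL4 (chr19:8363905-8364154, plus strand): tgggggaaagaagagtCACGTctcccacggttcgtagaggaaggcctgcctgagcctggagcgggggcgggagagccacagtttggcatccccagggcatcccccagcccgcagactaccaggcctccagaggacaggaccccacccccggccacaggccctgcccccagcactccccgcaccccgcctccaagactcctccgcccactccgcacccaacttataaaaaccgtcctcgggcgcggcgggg
G0S2 (chr1:209675162-209675411, plus strand): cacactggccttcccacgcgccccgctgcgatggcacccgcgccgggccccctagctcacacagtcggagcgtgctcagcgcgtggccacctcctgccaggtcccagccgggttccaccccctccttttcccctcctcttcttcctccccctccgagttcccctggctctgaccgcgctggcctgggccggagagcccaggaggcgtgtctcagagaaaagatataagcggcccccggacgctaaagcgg
In the PLIN2 window, ACGTG began at position -120 from the start site, and the palindromic E-box CACGTG, which holds ACGTG on both strands, began at -69. ANGPTL4 held ACGTG once, on the opposite strand, with its first base at -234. No match of ACGTG or of CACGTG was found in the windows of PLIN3, G0S2, PNPLA2, LPIN1 (3 start sites) or ACSL3, and none of CACGTG in that of ANGPTL4. Of these, PNPLA2 was also lower in high glucose in WT cells and is not shown, so the sequences shown do not stand for every member that was lower. A direct repeat of AGGTCA spaced by 1 base (the PPAR element, searched on both strands with up to 2 mismatches) was found in the window of none of these 7 members, PLIN2 and ANGPTL4 included. No window was matched to DGAT1 or to HILPDA, which was also lower in high glucose, so both are named only. Among 35116 RefSeq promoter windows of 250 bases, 18.5% held ACGTG, 6.34% held CACGTG and 2.57% held the direct repeat. In the annotation of the count table, PLIN2 spans bases 19108375 to 19149290 of chromosome 9 and ANGPTL4 spans bases 8363289 to 8374373 of chromosome 19, so both windows lie inside the annotated gene, downstream of its most distal start.

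PLIN2 mRNA was lower in high than in normal glucose in both lines, and the difference was larger in CF cells. In WT normal glucose libraries the lowest, median and highest PLIN2 levels were 30.1, 36.1 and 40.2 CPM, and the 5 WT high glucose libraries held 25.7, 26.4, 25.4, 29.1 and 29.8 CPM. CF normal glucose libraries held 65.9, 82.6 and 105 CPM, and CF high glucose libraries held 35.7, 36.9 and 44.4 CPM, again as lowest, median and highest. The glucose groups did not overlap in either line, and CF normal glucose libraries stood above all others. The log2 fold change with high glucose was -0.37 ± 0.10 (SE) in WT and -1.16 ± 0.10 in CF cells, and the CF response minus the WT response was -0.79 ± 0.14. The fold change in CF cells ranked 25 from the lowest among the 16338 genes tested. PLIN2 was chosen by its glucose response, so this rank is a description only. Over all genes, 8.41% of all genes passed an adjusted p under 0.05 with glucose in CF cells, 2.96% in WT cells and 0.0367% for the difference of the responses. In high glucose, CF libraries (from 35.7 CPM) lay above WT libraries (up to 29.8 CPM) and overlapped with the WT normal glucose range.

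The size of the PLIN2 response in CF cells differed between the number sets. In CF normal glucose, libraries numbered 4 to 6 held 98.7 ± 10.2 CPM (SD, n = 3) and those numbered 1 to 3 held 72.9 ± 6.37 CPM (n = 3), without overlap. The CF fold change was -0.87 ± 0.09 within libraries 1 to 3 and -1.44 ± 0.07 within libraries 4 to 6, and the CF-minus-WT difference was -0.57 ± 0.13 and -1.05 ± 0.11. Both sets gave the same direction. In WT cells the fold changes within the sets were closer, at -0.30 ± 0.09 and -0.39 ± 0.09.

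**Figure D1:**
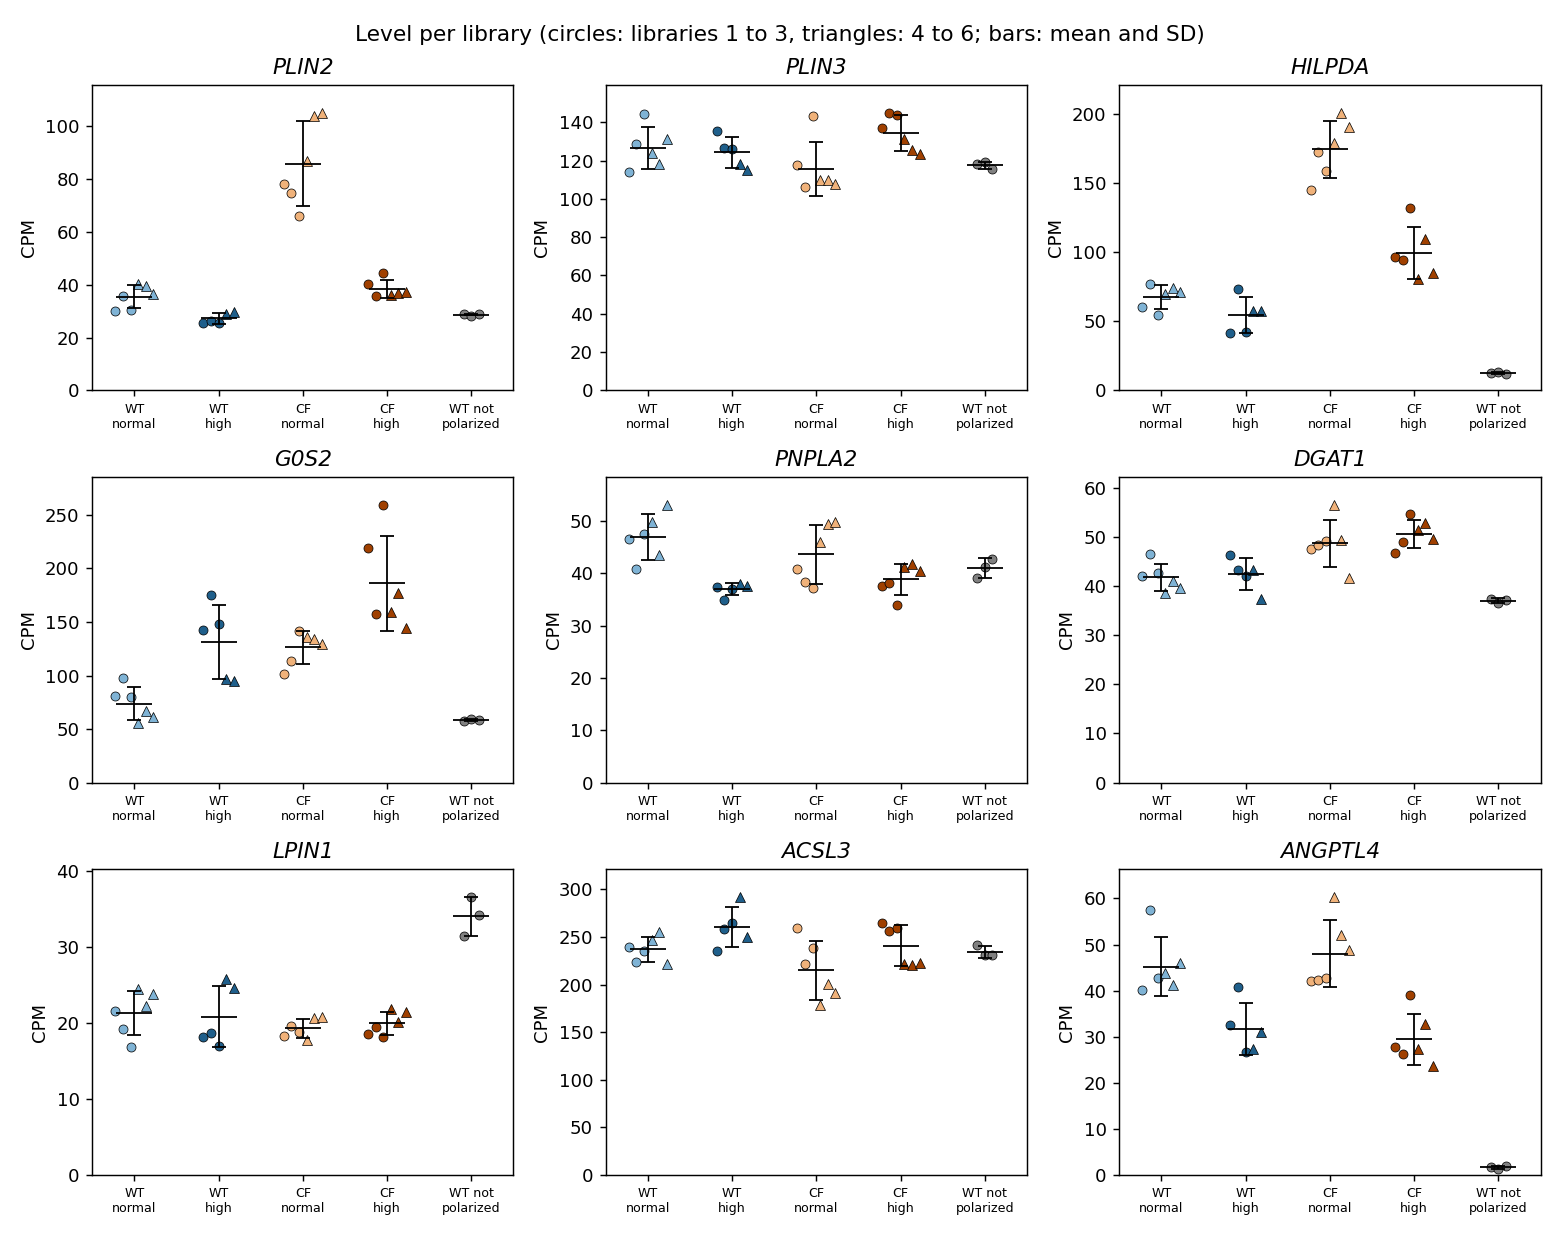
Level of each of the 9 genes (y axis, CPM) in every library of the 5 groups (x axis), with circles for libraries 1 to 3, triangles for libraries 4 to 6, and bars for the mean and SD. PLIN2 stood highest in CF normal glucose libraries (65.9 to 105 CPM), and ANGPTL4 and HILPDA stood lowest in not polarized cells.

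For the second perilipin, PLIN3, the 4 groups on Transwells overlapped. It held 114, 126 and 144 CPM in WT normal glucose libraries (lowest, median and highest), 135, 126, 126, 118 and 115 CPM in the 5 WT high glucose libraries, 106, 109.8 and 143 CPM in CF normal glucose and 123, 134 and 145 CPM in CF high glucose. Its log2 fold change with high glucose was -0.026 ± 0.078 in WT cells and 0.21 ± 0.07 in CF cells. On the length-scaled FPKM values, PLIN2 made up 13.4% ± 1.88 (SD, n = 6) of the summed PLIN2 and PLIN3 level in WT normal glucose, 10.9% ± 1.30 (n = 5) in WT high glucose, 29.2% ± 5.46 (n = 6) in CF normal glucose and 13.7% ± 0.937 (n = 6) in CF high glucose. Thus PLIN3 was the more abundant of both mRNAs in every group, and the share of PLIN2 was highest in CF normal glucose, from 20.3% to 35.0%. The other perilipins were scarce: group means of PLIN1, the adipocyte perilipin, reached 0.495 CPM, those of PLIN5, a perilipin of oxidative tissues, reached 1.38 CPM, and those of PLIN4 reached 3.63 CPM.

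The inhibitors of PNPLA2 differed from each other in direction. HILPDA was lower in high glucose: WT normal glucose libraries held 54.7, 70.8 and 76.9 CPM (lowest, median and highest), and the 5 WT high glucose libraries held 41.3, 73.2, 42.6, 57.6 and 57.6 CPM. CF normal glucose libraries held 145, 176 and 201 CPM, and CF high glucose libraries held 80.5, 95.8 and 132 CPM. The glucose groups overlapped in WT cells and did not overlap in CF cells. The log2 fold change was -0.32 ± 0.14 in WT and -0.81 ± 0.13 in CF cells, and within the number sets of CF cells it was -0.57 ± 0.24 (libraries 1 to 3) and -1.07 ± 0.09 (libraries 4 to 6). The CF-minus-WT difference was -0.49 ± 0.19, with -0.28 ± 0.34 within libraries 1 to 3 and -0.76 ± 0.13 within libraries 4 to 6.

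G0S2 was higher in high glucose. WT normal glucose libraries held 55.9, 73.1 and 97.6 CPM (lowest, median and highest), and the 5 WT high glucose libraries held 142, 175, 148, 97.1 and 94.5 CPM. CF normal glucose libraries held 102, 132 and 142 CPM, and CF high glucose libraries held 145, 168 and 259 CPM. The CF groups did not overlap, whereas in WT cells 2 high glucose libraries lay under the highest normal glucose library. The log2 fold change was 0.84 ± 0.18 in WT and 0.56 ± 0.17 in CF cells. In CF cells it was 0.83 ± 0.19 within libraries 1 to 3 and 0.25 ± 0.07 within libraries 4 to 6, an order of the sets opposite to that of PLIN2 and HILPDA.

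PNPLA2, the lipase that both proteins inhibit, was lower in high glucose in WT cells. Its levels were 40.8, 47.0 and 53.0 CPM in WT normal glucose libraries (lowest, median and highest) and 37.4, 34.9, 37.0, 37.9 and 37.5 CPM in the 5 WT high glucose libraries, without overlap. In CF cells the groups overlapped, with 37.2, 43.4 and 49.8 CPM in normal and 33.9, 39.2 and 41.6 CPM in high glucose. The log2 fold change was -0.34 ± 0.08 in WT and -0.17 ± 0.07 in CF cells, where it was -0.090 ± 0.084 within libraries 1 to 3 and -0.25 ± 0.08 within libraries 4 to 6. ABHD5, the activator of PNPLA2, did not pass with glucose in either line, between the lines on average or on Transwells, and the downstream lipases LIPE and MGLL did not pass with glucose in either line.

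On FPKM, the summed level of HILPDA and G0S2 over that of PNPLA2 was 9.83 ± 2.39 (SD, n = 6) in WT normal glucose, 18.6 ± 4.98 (n = 5) in WT high glucose, 20.5 ± 2.51 (n = 6) in CF normal glucose and 26.5 ± 8.12 (n = 6) in CF high glucose. G0S2 contributed most of the sum in every group. The ratio of HILPDA to G0S2 was 0.402 ± 0.103 in WT normal glucose and 0.184 ± 0.066 in WT high glucose, and 0.583 ± 0.063 in CF normal glucose and 0.228 ± 0.029 in CF high glucose. For this ratio the high glucose libraries of each line lay under all normal glucose libraries of that line.

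**Figure D2:**
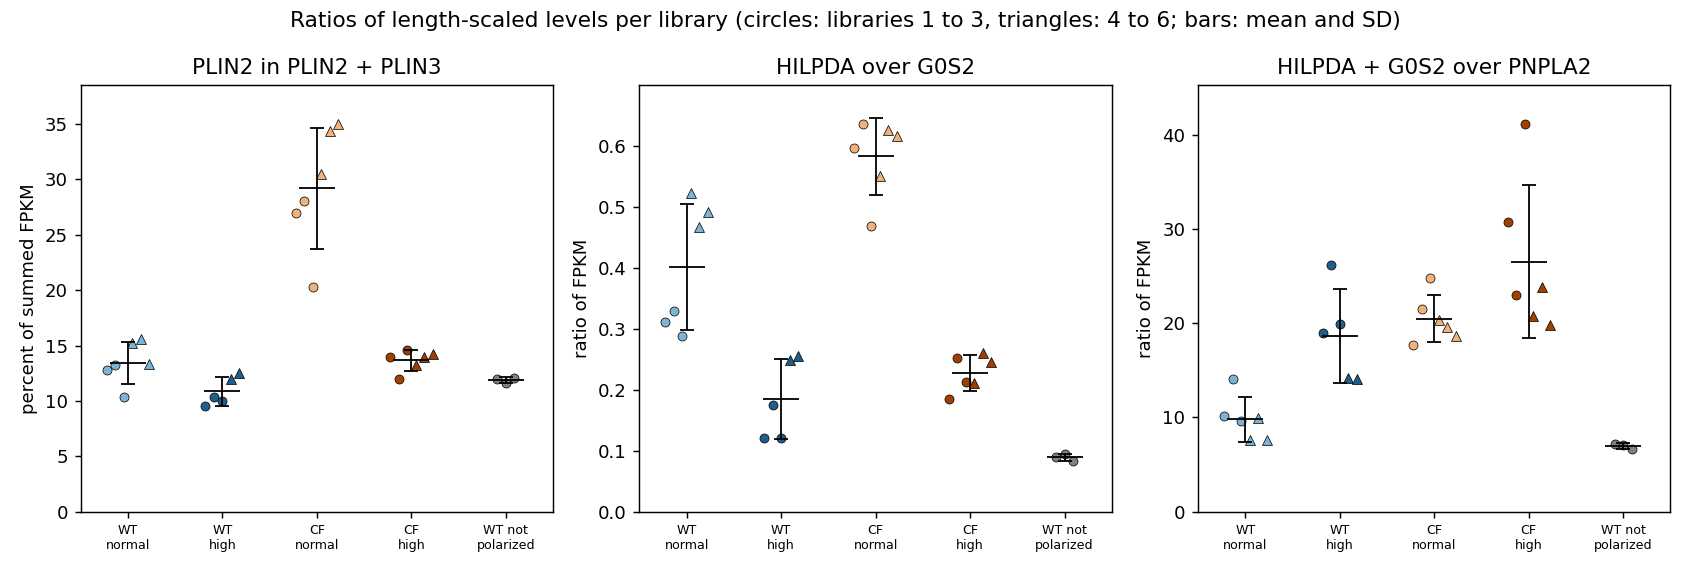
Share of PLIN2 in the summed FPKM of PLIN2 and PLIN3 (left, percent), HILPDA over G0S2 (middle) and HILPDA plus G0S2 over PNPLA2 (right) in every library of the 5 groups, with circles for libraries 1 to 3, triangles for libraries 4 to 6, and bars for the mean and SD. CF normal glucose libraries had the highest PLIN2 share (20.3% to 35.0%), and HILPDA over G0S2 was lower in high than in normal glucose in both lines.

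ANGPTL4, a secreted inhibitor of lipoprotein lipase, was lower in high glucose in both lines. It held 40.0, 43.2 and 57.5 CPM in WT normal glucose libraries (lowest, median and highest) and 32.5, 40.8, 26.7, 27.3 and 30.9 CPM in the 5 WT high glucose libraries. CF normal glucose libraries held 42.1, 45.7 and 60.3 CPM, and CF high glucose libraries held 23.5, 27.5 and 39.0 CPM. The CF groups did not overlap, and in WT cells 1 high glucose library (library 2, 40.8 CPM) lay above the lowest normal glucose library. The log2 fold change was -0.51 ± 0.13 in WT and -0.71 ± 0.12 in CF cells, and the difference of the responses was -0.20 ± 0.18. Within the number sets this difference changed sign, from 0.028 ± 0.267 in libraries 1 to 3 to -0.39 ± 0.15 in libraries 4 to 6, and the CF fold change was -0.46 ± 0.19 and -0.96 ± 0.10.

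The genes of triglyceride synthesis among the members varied little with glucose. DGAT1 makes the last step to triglyceride, LPIN1 is the phosphatidate phosphatase before it, and ACSL3 activates fatty acids on nascent droplets. Their log2 fold changes were between -0.033 (LPIN1) and 0.14 (ACSL3) in WT cells and between 0.042 (LPIN1) and 0.16 (ACSL3) in CF cells, and the glucose groups overlapped in each line for all 3. DGAT1 ranged from 37.4 to 56.5 CPM over the cells on Transwells, LPIN1 from 16.8 to 25.8 CPM and ACSL3 from 178 to 292 CPM. DGAT1 overlaps HSF1 on the opposite strand, which held a mean of 74.6 CPM over the 26 libraries. No source used here says whether counting used strand, so the DGAT1 values are uncertain.

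**Figure D3:**
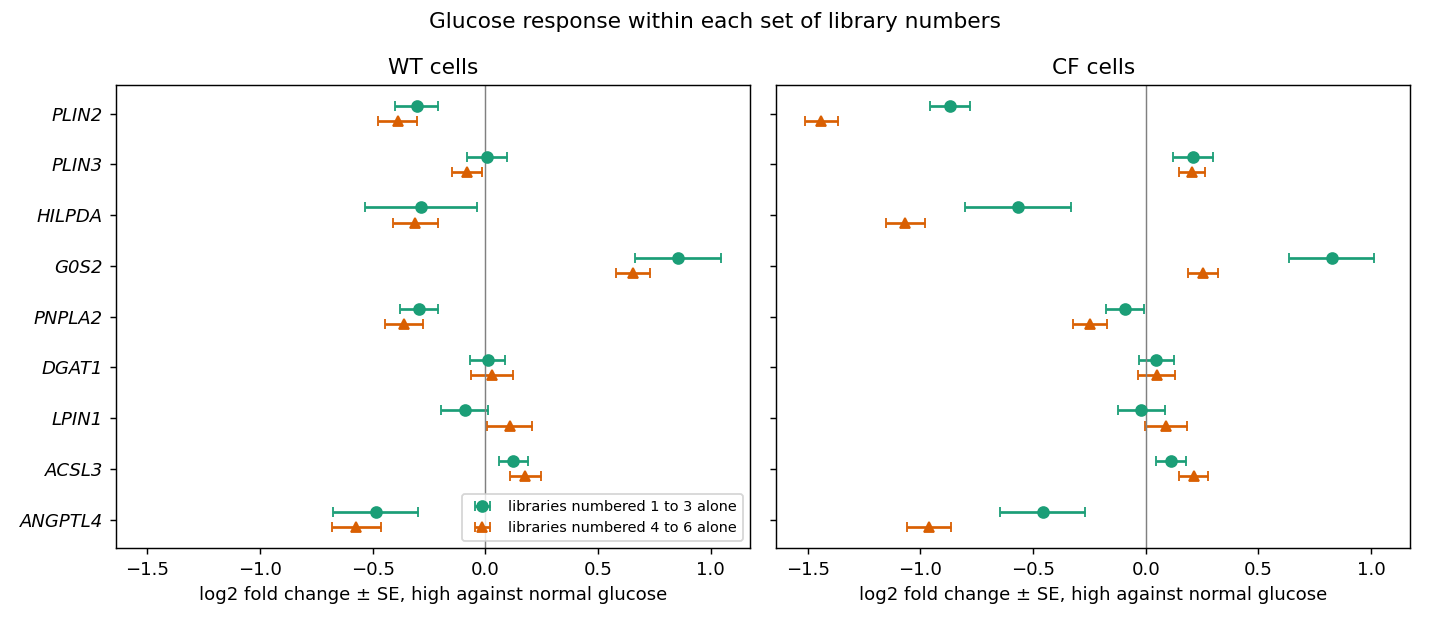
Log2 fold change of each of the 9 genes between high and normal glucose (x axis, with SE) in WT cells (left) and CF cells (right), fitted within libraries 1 to 3 (circles) and within libraries 4 to 6 (triangles). In CF cells PLIN2, HILPDA and ANGPTL4 were further below 0 within libraries 4 to 6 (PLIN2 -1.44 against -0.87), and G0S2 was closer to 0.

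The line difference averaged over the glucose levels was not the value by which PLIN2 was chosen, and it was tested with edgeR's quasi-likelihood test. All members were chosen with earlier results of these data known, so the choice was not blind to them. The comparison is between lines, and the part of the CFTR genotype in it was not tested. In CF cells PLIN2, HILPDA, G0S2 and DGAT1 were higher than in WT cells, and no member passed as lower. These 4 of 9 members (44.4%) are to be read against 33.2% of all 16338 genes that passed this comparison, and the median member log2 fold change was -0.0082 beside 0.0050 over all genes. HILPDA differed most, with a log2 fold change of 1.12 ± 0.10 (2.17-fold, adjusted p = 1.09e-09, Benjamini-Hochberg). PLIN2 was 0.88 ± 0.07 higher (1.85-fold, adjusted p = 1.73e-10), G0S2 0.64 ± 0.12 (adjusted p = 0.000206) and DGAT1 0.24 ± 0.05 (adjusted p = 0.000406). HILPDA and PLIN2 libraries did not overlap between the lines at either glucose level, and G0S2 overlapped in high glucose. PLIN2 gave 0.90 within libraries 1 to 3 and 0.83 within libraries 4 to 6, and HILPDA gave 1.17 and 1.04. For G0S2 they were 0.45 and 0.93, and for DGAT1 0.16 and 0.33, each of which passed.

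For the other 5 members the line difference did not pass in the fit without a set term. The 95% intervals of the log2 fold change were -0.11 to 0.10 for PLIN3, -0.12 to 0.087 for PNPLA2 and -0.19 to 0.17 for ANGPTL4. LPIN1 (-0.10 ± 0.07) and ACSL3 (-0.13 ± 0.06, adjusted p = 0.10) depended on the number set. Within libraries 4 to 6 alone ACSL3 was lower in CF cells (-0.32 ± 0.05, adjusted p = 5.96e-07) and so was LPIN1 (-0.25 ± 0.07, adjusted p = 0.0031), while within libraries 1 to 3 they were at 0.033 ± 0.046 and 0.014 ± 0.074. Over all 23 libraries ACSL3 also passed as lower with a term for the number set (-0.13 ± 0.05, adjusted p = 0.027), and without CF normal glucose library 1 (-0.16, adjusted p = 0.024).

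The lines also differed along stretches of chromosomes, so each member that passed is set beside its neighbours. Of the 32 tested genes within 5 Mb of PLIN2, 4 were higher and 4 were lower in CF cells, with a median log2 fold change of 0.017. Around HILPDA, 22 of 69 neighbours were higher and 5 lower, with a median of 0.17, and around G0S2 11 of 74 were higher and 13 lower, with a median of -0.018. Around DGAT1 15 of 96 were higher and 6 lower, with a median of 0.020. The fold changes of PLIN2, HILPDA, G0S2 and DGAT1 lay above the upper quartile of their neighbours, which was 0.16, 0.51, 0.12 and 0.0995. The part of copy number in these differences was not tested.

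The WT normal glucose libraries, called on Transwells here, were compared with the WT libraries labelled not polarized, on 9 libraries and 16105 genes. The culture text describes Transwells for both groups, so how the not polarized cells were grown is not known. The comparison is therefore between labels and not a test of Transwell culture. The 6 Transwell libraries are also the WT normal glucose group of the glucose comparison, so the comparisons share them. ANGPTL4 and HILPDA were far higher on Transwells: ANGPTL4 held 1.63, 1.29 and 1.98 CPM in the 3 not polarized libraries against 40.0 to 57.5 CPM on Transwells, a log2 fold change of 4.82 ± 0.18 (28.2-fold, adjusted p = 8.23e-11). HILPDA held 12.4, 13.6 and 11.7 CPM in not polarized cells against 54.7 to 76.9 CPM, a log2 fold change of 2.45 ± 0.12 (5.48-fold, adjusted p = 1.86e-09). LPIN1 went the other way, with 31.5, 36.6 and 34.2 CPM in not polarized cells against 16.8 to 24.4 CPM on Transwells (-0.65 ± 0.11, adjusted p = 0.000209). The groups did not overlap for any of the 3.

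The fold change of PLIN2 on Transwells was smaller than that of HILPDA. PLIN2 held 29.0, 28.3 and 28.8 CPM in not polarized cells and was 0.32 ± 0.10 higher on Transwells (adjusted p = 0.014). With the replicate block this became 0.18 ± 0.09 (adjusted p = 0.079), with Transwell libraries 1 to 3 alone 0.18 ± 0.08 (adjusted p = 0.075), and without not polarized library 2 it was 0.31 (adjusted p = 0.059). The not polarized libraries are numbered 1 to 3 only. The replicate block therefore sets them against Transwell libraries 1 to 3 and is not a check separate from those libraries alone. PNPLA2 (0.21 ± 0.08, adjusted p = 0.046) and DGAT1 (0.20 ± 0.08, adjusted p = 0.043) also passed, but PNPLA2 lost its call without any 1 of 7 libraries (adjusted p up to 0.19) and DGAT1 without any 1 of 6 (up to 0.14). With the replicate block PNPLA2 did not pass (0.16 ± 0.08, adjusted p = 0.087), and DGAT1 did (0.27 ± 0.08, adjusted p = 0.0064). Of 10 alternative fits that kept every library or a number set, PNPLA2 lost its call in 9 (adjusted p up to 0.14) and DGAT1 in 2 (up to 0.15). G0S2 was at 0.35 ± 0.15 (adjusted p = 0.066) and passed with the replicate block (0.57 ± 0.07, adjusted p = 2.12e-06), while PLIN3 (0.13 ± 0.07) and ACSL3 (0.037 ± 0.061) did not pass in that fit either. In WT normal glucose, G0S2 held a mean of 86.0 CPM in libraries 1 to 3 and 61.2 CPM in libraries 4 to 6. Its mean in not polarized cells was 58.8 CPM, so its call depended on the number set. Thus 6 of 9 members passed, 5 higher and 1 lower (66.7%), against 50% of all genes tested, and the median member fold change was 0.21 beside 0.024 over all genes.

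**Figure D4:**
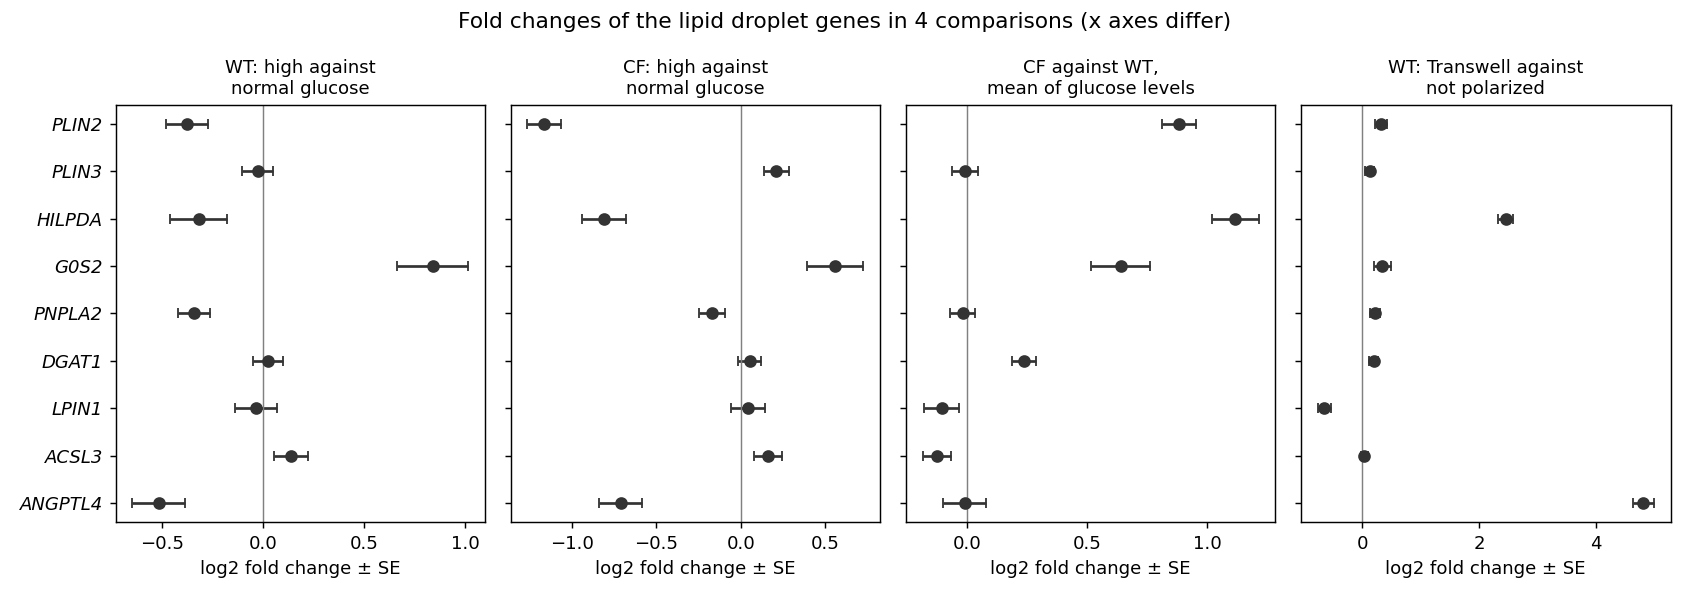
Log2 fold change with its SE (x axis, scales differ between panels) of the 9 genes in 4 comparisons: high against normal glucose in WT and in CF cells, CF against WT averaged over glucose levels, and WT cells on Transwells against not polarized cells. PLIN2 was at -1.16 with glucose in CF cells and at 0.32 on Transwells, whereas ANGPTL4 was at 4.82 on Transwells.

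Levels of different members can be compared per length, on FPKM. In WT normal glucose, mean FPKM was 84.3 for G0S2, 44.6 for PLIN3, 32.5 for HILPDA, 32.4 for ACSL3, 18.0 for ANGPTL4, 12.1 for PNPLA2, 10.0 for DGAT1, 6.89 for PLIN2 and 1.79 for LPIN1. HILPDA and ACSL3 did not differ beyond their SD (4.12 and 1.73), whereas the SD of G0S2 was 18.0. In CF normal glucose HILPDA reached 84.4 ± 9.91, second to G0S2 at 146 ± 17.6, and PLIN2 reached 16.9 ± 3.13, above PNPLA2 at 11.3 ± 1.44 and near ANGPTL4 at 19.3 ± 2.93. In both high glucose groups PLIN2 was again 8 of 9, and DGAT1 (10.2 ± 0.824 in WT, 12.2 ± 0.693 in CF) had a higher mean than PNPLA2 (9.54 ± 0.271 and 10.0 ± 0.778), a difference within the SD in WT cells. In not polarized cells ANGPTL4 was the lowest member at 0.650 ± 0.138 FPKM.

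The 5 genes whose pattern over the 5 group means was nearest to that of PLIN2, by root mean square distance of centred log2 CPM among 10698 genes, were NFIL3 (distance 0.204), MTSS1L (0.218), JAG1 (0.225), TRAM2 (0.233) and LIMD1 (0.235). NFIL3, a transcription factor, held mean levels of 38.7 CPM in WT normal glucose, 31.0 in WT high glucose, 72.2 in CF normal glucose, 50.6 in CF high glucose and 29.3 in not polarized cells. Its log2 fold change with glucose in CF cells was -0.52, less than that of PLIN2. This likeness describes the group means of these libraries only.

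Other genes of droplet and fatty acid metabolism were read from 6 lists of 97 genes, 74 of which had enough counts to be tested. With high glucose in WT cells 1 of 74 rose and 3 fell, and in CF cells 5 rose and 13 fell. Over all genes tested, 1.49% were higher and 1.47% lower in WT cells, and 4.27% and 4.14% in CF cells. Of the 18 HIF targets outside lipid metabolism and glycolysis, 12 fell in CF cells and 2 in WT cells, with median log2 fold changes of -0.53 and -0.25 beside -3.61e-05 and 0.00051 over all genes. ADM, a vasoactive peptide, fell by 0.89 ± 0.13 in CF cells (adjusted p = 9.85e-05) and by 0.75 ± 0.14 in WT cells (adjusted p = 0.0029), and the oxygen sensor EGLN3 fell by 0.63 ± 0.09 in CF cells (adjusted p = 6.75e-05). Within libraries 1 to 3 alone ADM did not pass in CF (-0.62, adjusted p = 0.057) or WT cells (-0.78, adjusted p = 0.056). The fall of HIF targets in CF cells was already known from these data when the list was made and is no independent support for the values of HILPDA, PLIN2 or ANGPTL4.

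The fatty acid transport proteins SLC27A4 (0.48 ± 0.08, adjusted p = 0.00050), SLC27A3 (0.37 ± 0.07, adjusted p = 0.0011) and SLC27A1 (0.32 ± 0.08, adjusted p = 0.0080) rose in CF cells, 3 of the 14 tested genes of acyl-CoA synthesis, uptake and binding, and SLC27A1 did not pass within libraries 1 to 3 alone (0.25, adjusted p = 0.11). DGAT2, which shares its reaction with DGAT1, rose in both lines, by 0.38 ± 0.08 in WT (adjusted p = 0.0098) and 0.29 ± 0.08 in CF cells (adjusted p = 0.016). Its CF call was lost within libraries 4 to 6 (0.12, adjusted p = 0.50), without the low-count filter (adjusted p = 0.052) and without CF normal glucose library 1 (adjusted p = 0.051), and its WT call within libraries 1 to 3 (0.35, adjusted p = 0.069). Among 15 PPAR and fatty acid oxidation genes, RXRA fell in WT cells (-0.32 ± 0.08, adjusted p = 0.019), and in CF cells PPARA fell (-0.28 ± 0.09, adjusted p = 0.043) and CPT2 rose (0.37 ± 0.11, adjusted p = 0.043). The calls of PPARA and CPT2 in CF cells were lost in the limma fits and within libraries 1 to 3 alone (adjusted p = 0.078 and 0.22), and on leaving out any 1 of 13 and of 11 libraries, and the RXRA call on leaving out any 1 of 3. PPARD (-0.036 in WT, -0.093 in CF), PPARG (0.79 and 0.28) and CPT1A (0.057 and 0.12) did not pass, and PDK4 was too low to test. None of the 9 tested coat and droplet-forming genes and none of the 6 lipolysis genes passed in either line.

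For the difference between the responses of the lines, 0 of 74 genes passed with edgeR, 14 had an unadjusted p under 0.05 (8 of them HIF targets) and 2 passed with DESeq2. Over all genes, 1109 of 16338 had an unadjusted p under 0.05. With the replicate block 3 passed, and 8 passed within libraries 4 to 6 alone.

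**Figure D5:**
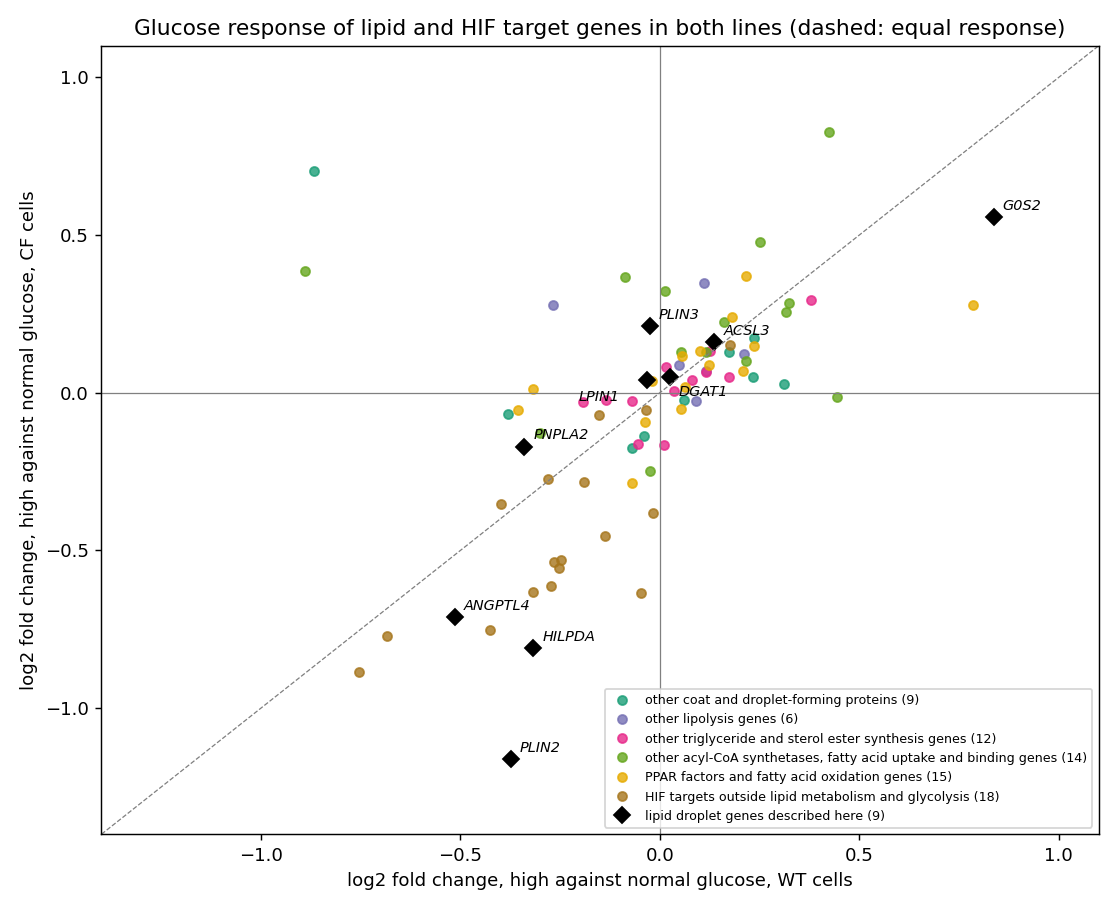
Log2 fold change with high glucose in WT cells (x axis) and in CF cells (y axis) of the 74 tested genes of 6 lists (dots) and the 9 lipid droplet genes (diamonds), with the dashed line marking equal responses. PLIN2, HILPDA and the 12 of 18 HIF targets that passed in CF cells lay under 0 on the CF axis, and G0S2 lay above 0 on both axes.

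Between the lines, 23 of these 74 genes were higher and 16 lower in CF cells, averaged over glucose, beside 15.9% higher and 17.3% lower over all genes. Of the HIF targets 10 were higher, including NDRG1 at 0.82 ± 0.10 (adjusted p = 3.68e-07), and 2 were lower, CA12 and BNIP3L. CA12 was scarce in all groups compared, with means of 0.762 and 0.652 CPM in WT and 0.172 and 0.0188 CPM in CF cells, and too low to be tested under the stricter filter. ACSL5, an acyl-CoA synthetase, was higher (1.76 ± 0.09, adjusted p = 4.53e-15), as were DGAT2 (0.56 ± 0.06) and MGLL, the monoglyceride lipase (0.42 ± 0.05). PPARG was at 0.52 ± 0.20 (adjusted p = 0.044), but at 0.066 (adjusted p = 0.87) within libraries 1 to 3, and its call was lost in the limma fits, without the low-count filter (adjusted p = 0.0501) and without any 1 of 14 libraries. Among the lower genes, DDHD2, GPAT4, AGPAT5 and BNIP3L lie on the short arm of chromosome 8, where 92.6% to 100% of the neighbours within 5 Mb passed with medians of -1.04 to -0.92. CPT1A, the entry enzyme of mitochondrial fatty acid oxidation, was at -0.75 ± 0.05, and 126 of its 215 neighbours on chromosome 11 were lower.

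On Transwells against not polarized cells, 31 of 72 tested list genes were higher and 18 lower, beside 26% higher and 24% lower over all genes. Of 17 HIF targets 15 were higher, among them EGLN3 (5.10 ± 0.17, adjusted p = 4.33e-11) and NDRG1 (2.80 ± 0.08, adjusted p = 9.36e-12), with a median of 1.08. The perilipins PLIN4 (1.40 ± 0.28, adjusted p = 0.00090) and PLIN5 (1.33 ± 0.33, adjusted p = 0.0040) were higher too, as was the muscle type carnitine palmitoyltransferase CPT1B (2.09 ± 0.34, adjusted p = 0.00019). Lower on Transwells were LPL, the lipase that ANGPTL4 inhibits (-2.93 ± 0.34, adjusted p = 7.86e-06), PPARG (-2.84 ± 0.20, adjusted p = 4.81e-08), GPAT3 (-1.32 ± 0.07, adjusted p = 4.28e-09), DGAT2 (-1.12 ± 0.09, adjusted p = 2.13e-07), CPT1A (-0.78 ± 0.07, adjusted p = 1.10e-06) and the lipase LIPE (-0.56 ± 0.14, adjusted p = 0.0033). LPL was scarce in both groups, with means of 2.12 CPM in not polarized cells and 0.269 CPM on Transwells. PLIN5 was scarce too, with 0.560 and 1.38 CPM. Both were too low to be tested in the limma fits with a filter.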

How the data were processed

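Total RNA of 26 samples was selected for poly(A) RNA and sequenced. Per the submitters' processing notes, HISAT2 and the hg38 build were used. No source used here gives the aligner version, the counting tool or the strand setting. The authors deposited raw gene counts and FPKM values. The 9 members and the gene lists were chosen with earlier results of these data known. Samples were grouped by the labelled line and glucose level.

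Counts were tested in edgeR 4.0.16 (R 4.3.3): filterByExpr (minimum count 10, minimum total 15), TMM, a quasi-likelihood fit with 1 coefficient per group and Benjamini-Hochberg adjustment over all genes tested, with a threshold of 0.05. One fit held the 23 Transwell libraries (19 residual degrees of freedom), the other the 9 WT normal glucose libraries (7). SE are the log2 fold change over the square root of its F statistic, and 95% intervals use the normal distribution. FPKM as deposited was used to compare genes. Alternatives were DESeq2 1.42.0, RLE size factors, other filters, limma 3.58.1 on log2(FPKM + 1) and log2(FPKM + 0.1), a replicate block, a term for the number set, each set alone, only the groups compared, and each library left out. The fits were tested on simulated counts.

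Genes named besides the members were drawn, per list and comparison, from up to 2 genes that passed in each direction with the largest fold change. Only genes with a group mean of at least 1 CPM were taken. Not every gene that met this rule is named: the lipolysis gene PNPLA3, at 1.01 ± 0.20 on Transwells, is among those left out. Chosen by name were PLIN1, PLIN4, PLIN5, ABHD5, LIPE, MGLL, DGAT2, CPT1A, PDK4, PPARD and PPARG. SLC27A1 and EGLN3 with glucose in CF cells were named after their values were seen. The 5 genes nearest to PLIN2 were those of mean CPM of at least 5 with the smallest distance.

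Library numbers come from the titles. The correlation of same-numbered deviations exceeded 0.1 in all 6 pairs of CF normal with CF high glucose (mean 0.354, other numbers of the same set 0.339), in all pairs between the lines (6 in normal glucose, 5 in high glucose), in 4 of 5 WT glucose pairs and in 0 of 3 pairs with not polarized cells. Other numbers of the same set correlated about as much, so this check cannot tell pairing by number from the number set. Between the lines the means were 0.246 for same and 0.242 for other numbers in normal glucose, and 0.317 and 0.316 in high glucose. No 2 libraries of a group agreed within sampling noise (lowest chi-square per gene 1.99). That value was in the not polarized group, whose pairs ranged from 1.99 to 2.25, against 2.48 to 56.3 within the Transwell groups. Thus the not polarized libraries were more alike than those of any other group, and the labels do not say whether they came from separate cultures.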

Additional observations from a re-analysis of the deposited data

Results flagged for a closer look

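PLIN3 was at 143 CPM in CF normal glucose library 3, far from the other libraries of its group, of which the next was at 117 CPM. ANGPTL4 was at 57.5 CPM in WT normal glucose library 2, and the next library of its group was at 45.9 CPM. Both were noted because 1 library stood apart from the rest of its group by more than Dixon's 95% limit. Among 36 groups of values tested, chance gives about 1 in 20. Their cause was not tested.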

How the results depend on the processing

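Member counts per library ranged from 24 to 5607, so counting error is largest for ANGPTL4 in not polarized cells. PLIN2 in CF cells was -0.87 in libraries 1 to 3 and -1.44 in libraries 4 to 6, and its CF-minus-WT difference was -0.57 and -1.05. For WT cells the count of list genes that passed (4) became 11 with DESeq2, 13 in libraries 4 to 6 alone, 13 with the replicate block and 16 with the set term, and for the difference of the lines 0 became 2, 8, 3 and 5. Leaving out 1 library gave 2 to 6 for WT cells (2 without WT high glucose library 3 or WT normal glucose library 4). On Transwells, 6 members passed, 3 with limma without a filter, and 3 to 6 with 1 library left out (3 without not polarized library 2). PLIN2 there was 0.18 within libraries 1 to 3 (adjusted p = 0.075), 0.26 with limma without a filter (0.072), 0.18 with the replicate block (0.079) and 0.19 with the set term (0.065), and 0.29 to 0.37 with 1 library left out. Over all genes, the replicate block moved calls with glucose from 244 higher and 240 lower to 510 and 582 in WT cells, from 698 and 676 to 1279 and 1282 in CF cells, and from 2 and 4 to 30 and 43 for the difference. DESeq2 called 399 and 410 in WT cells and 30 and 37 for the difference, and without a low-count filter edgeR called 154 and 165 in WT cells and 456 and 435 in CF cells. Limma without a filter called 147 and 165 in WT cells and 2 and 1 for the difference, and libraries 1 to 3 alone called 0 and 1 for the difference. The set term gave 674 and 744 in WT cells, 1392 and 1420 in CF cells and 70 and 76 for the difference, and libraries 4 to 6 alone gave 384 and 439, 926 and 1404, and 117 and 270. The cause of these changes was not tested. With the replicate block PLIN2 was -1.15 in CF and -0.35 in WT cells, and the same 4 members were higher between the lines. No member that passed reversed direction under the alternatives run. Libraries 4 to 6 gave no Transwell value, since no not polarized library has those numbers. For the same reason the Transwell values with the replicate block and with the set term rest on libraries 1 to 3.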

Other observations

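Among the coat proteins outside the members, PLIN5 had group means of 1.38 CPM in WT normal glucose and 0.753 CPM in WT high glucose, against 0.812 CPM in CF normal glucose and 1.33 CPM in CF high glucose. Its log2 fold change with high glucose was -0.87 ± 0.28 in WT cells and 0.70 ± 0.27 in CF cells, and neither passed after adjustment (edgeR, adjusted p = 0.10 and 0.12). The difference of the responses was 1.57 ± 0.39 (adjusted p = 0.18), opposite in sign to that of PLIN2. LIPE, the hormone-sensitive lipase, had values of -0.27 ± 0.18 in WT and 0.28 ± 0.18 in CF cells, and these did not pass either.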
